A study of Mus musculus with 4 samples.

Results

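The genes described here are 7 genes of skeletal muscle, measured on arrays of cardiac neural crest cells (NCCs). The cells were sorted at E10.5 out of the outflow tract (OFT) of mouse embryos with ILK deletion and of control embryos. Myf5, Myod1 and Myog encode myogenic transcription factors, Neb, Myh3 and Actn3 encode proteins of the sarcomere, and 2310015B20Rik, now named Mrln, encodes a peptide of the muscle membrane. Each is represented by 1 probe set, and together they are 7 of the 45037 probe sets tested and 7 of the 550 genes that the authors' table of differing probe sets names alone. The genes were selected on measured values, because that table holds only probe sets that differed between the genotypes on these same 4 arrays. Every difference between the genotypes below is therefore a description of the chosen genes, without a test. Other probe sets of these genes carry no name here and were not analysed.

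Skeletal muscle forms when the basic helix-loop-helix factors Myf5 and Myod1 commit progenitors to the muscle fate and Myog drives their differentiation. These factors bind E-boxes, short palindrome-like DNA motifs, and act together with MEF2 proteins on the genes of the contractile apparatus. In the head and pharyngeal arches the muscle cells come from mesoderm, while the neural crest supplies the surrounding connective tissue.

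In NKO mutants Wnt1-Cre, a Cre driven in the neural crest, deletes ILK (Wnt1-Cre;ILK f/f), and the controls, which the labels call wild type, were Wnt1-Cre;ILK f/+ littermates according to the study. Controls thus also carry the Cre transgene and a floxed allele, and the study calls mice of this genotype heterozygous for ILK. OFTs of a genotype were pooled and digested, cells with β-galactosidase activity from the lacZ reporter were stained with FDG and sorted by FACS, and several sorts were pooled for RNA. Each genotype has 2 samples, labelled as biological replicates, and no source used here says how the pools were divided between them. The spread between them may be partly technical.

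The targeted gene, Ilk, gave array intensities of 809 and 801 (control) against 468 and 387 (NKO), 53.1% of the control mean. The median intensity of the arrays lay between 75.9 and 79.3. On the log2 scale over all probe sets, the controls correlated with each other at r = 0.9968 and the NKO samples at 0.9948. Pairs of a control and an NKO sample lay between 0.9948 and 0.9959, so the NKO samples did not stand apart as a group. Of 20 genes of the neural crest and its mesenchyme, 4 have a named probe set (Prrx1, Dlx1, Msx2 and Pax3). Defining NCC genes such as Sox10, Foxd3 and Tfap2a have none, so the labelled cell type could not be checked against them.

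Among the myogenic factors, Myog had the largest relative difference. Myog, on mouse chromosome 1 (GRCm38.p6, chr1:134290004-134292548), gave intensities of 447 and 453 (control) against 306 and 293 (NKO). Both NKO samples were below both controls, and their mean was 66.7% of the control mean. On the log2(intensity + 16) scale used for all differences here, which narrows those of dim probe sets, Myog differed by −0.56 (standard error 0.060, n = 2 samples per genotype). Myf5, the earliest of the factors in the embryo (chr10:107482908-107486927), gave 189 and 193 (control) against 129 and 135 (NKO). Its NKO samples were also both below both controls, at 69.0% of the control mean and a log2 difference of −0.49 (standard error 0.060).

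Myod1, the determination factor that overlaps Myf5 in function (chr7:46376474-46379092), gave 127 and 128 (control) against 95.4 and 103 (NKO). The control samples lay within 1 unit of each other, the NKO samples were further apart, and the genotypes did not overlap. Its NKO mean was 77.9% of the control mean, with a log2 difference of −0.32 (standard error 0.066), the smallest in size among the 7 genes.

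**Figure D1:**
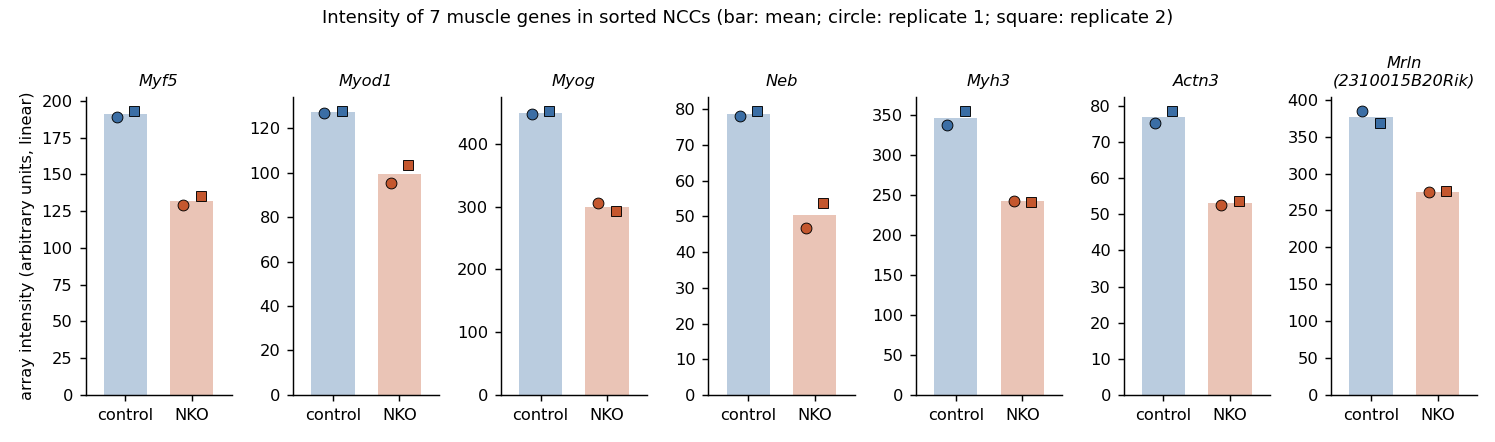
Array intensity (linear scale, arbitrary units) of each of the 7 genes in the control and NKO samples, with a vertical axis of its own for each gene. Bars are means of 2 samples, circles replicate 1 and squares replicate 2. In all 7 genes both NKO samples lie below both controls, with NKO means between 63.8% (Neb) and 77.9% (Myod1) of the control mean.

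The sarcomere genes had differences of similar size. Neb encodes nebulin, the protein that runs along the thin filament (chr2:52136640-52338798). Its probe set gave 78.0 and 79.6 (control) against 46.6 and 53.9 (NKO), so that the NKO samples were low but less alike than the controls. The NKO mean was 63.8% of the control mean, and the log2 difference was −0.52 (standard error 0.079), the widest error of the 7. The deposited name of this probe set also gives AI595938, which RefSeq lists as a synonym of Neb.

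Myh3, the myosin heavy chain of embryonic muscle (chr11:67078273-67102291), gave 337 and 355 (control) against 243 and 241 (NKO). Here the NKO samples nearly coincided and the controls were further apart. The log2 difference was −0.49 (standard error 0.061), at 70.0% of the control mean. Actn3, the α-actinin of the Z-disc of fast fibers (chr19:4861216-4877909), gave 75.3 and 78.7 (control) against 52.7 and 53.8 (NKO), without overlap. The log2 difference was −0.43 (standard error 0.059), at 69.2% of the control mean. The probe sets of Neb and Actn3 were dimmer than the median probe set, and those of the other 5 genes were brighter.

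Mrln (2310015B20Rik, chr10:70204664-70219711) encodes myoregulin, a small membrane peptide that inhibits the calcium pump of the sarcoplasmic reticulum in skeletal muscle. It gave 385 and 369 (control) against 275 and 276 (NKO). The NKO samples were close to each other and both were below the lower control. The NKO mean was 73.0% of the control mean, with a log2 difference of −0.43 (standard error 0.060).

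All 7 genes were lower in the NKO samples, and whether the sizes differ between genes was not tested. Their median log2 difference was −0.49, against 0.013 over all probe sets tested. When each NKO sample was set against each control, the 4 differences of Myod1 lay between −0.37 and −0.26, above those of each of the other 6 genes. Those of Myog lay between −0.60 and −0.52 and did not overlap with those of Mrln (−0.46 to −0.40) or Actn3 (−0.46 to −0.39). The ranges of Neb (−0.61 to −0.43), Myh3 (−0.53 to −0.45) and Myf5 (−0.53 to −0.44) overlapped with that of Myog, with each other and with those of Mrln and Actn3. The 4 differences of a gene share samples, so these ranges do not measure its error. In order of decrease over all 45037 probe sets, Myog was at place 89, Neb at 130, Myh3 at 185, Myf5 at 192, Mrln at 318, Actn3 at 342 and Myod1 at 976.

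The replicates lay close together for these genes. The authors' selection on the same arrays could depend on this spread, so it too is a description. The median size of the difference between the controls was 0.028 on the log2 scale over the 7 genes, against 0.078 over all probe sets, and that between the NKO samples was 0.058 against 0.10. Of the 7 genes 5 were brighter than the median probe set, and no comparison at like intensity was made. The replicates did not separate in 1 direction for the factors, since the second NKO sample was above the first for Myf5 and Myod1 and below it for Myog. Over the 7 genes it was above in 5, whereas it was above in 43.9% of all probe sets. The second control was above the first in 6 of the 7 genes and in 42.7% of all probe sets. The gap between the lowest control and the highest NKO sample was between 3.03 times (Myod1) and 10.8 times (Myog) the wider replicate range of the gene. That ratio was not taken over other probe sets, so whether it is unusual is not known.

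**Figure D2:**
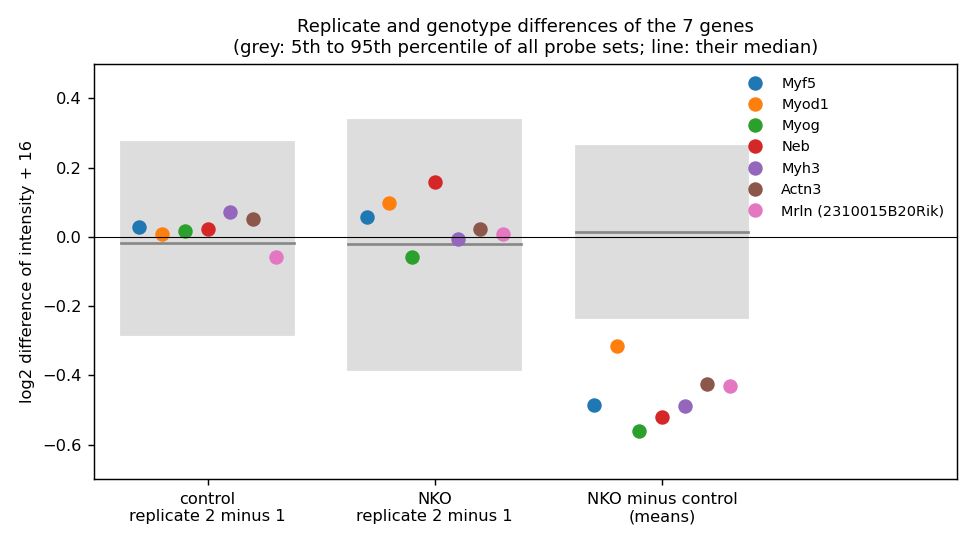
Differences on the log2(intensity + 16) scale for each of the 7 genes (colored points): replicate 2 minus replicate 1 within the controls and within the NKO samples, and NKO minus control. Grey boxes span the 5th to the 95th percentile of all 45037 probe sets, with a line at their median. The replicate differences of the 7 genes lie inside the boxes, and their genotype differences, from −0.56 to −0.32, lie below the box.

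Counted over all probe sets, both NKO samples were below both controls in 18.4%, and in all 7 of these genes. With limma and Benjamini-Hochberg adjustment, 0% of the probe sets were lower at an adjusted p under 0.05, and 0 of the 7 genes were. At an unadjusted p under 0.05 limma passed 3.64% of the probe sets as lower, with all 7 genes among them. Of all probe sets 0.158% were at least 1.5-fold lower, the cutoff of the methods, and none of the 7 genes was on this scale. As a plain ratio of mean intensities, without the offset, Neb was past the cutoff at 1.57-fold lower and Myog lay just short of it at 1.4995-fold. The share of all probe sets past the cutoff on that plain ratio was not counted. With an offset of 1, nearer to a plain ratio, 1557 of the 45037 probe sets were at least 1.5-fold lower. When limma was given an intensity trend with robust moderation, 0.46% passed as lower, with 5 of the 7 genes (Myf5, Myog, Neb, Myh3 and Mrln). Because the genes were chosen on this contrast, these counts say nothing further about them. In bulk RNA of sorted cells, fewer cells that express a gene and less RNA of it per cell cannot be told apart.

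The upstream sequences of 4 of the 7 genes are shown because some products of the 7 genes bind E-boxes. The RefSeq promoter table of GRCm38.p6 used here matched Myf5, Myog, Myh3 and Mrln. Each line is the 250 bases before the transcription start that this table uses, 5′ to 3′ on the strand of the gene. That start is not always the end of the gene span given above: the Myf5 window lies wholly inside the span, and the Myh3 window runs into its first bases. Letters are in lower case, and capitals mark every E-box, CANNTG on either strand.
Myf5 (chr10:107486135-107486384, minus strand): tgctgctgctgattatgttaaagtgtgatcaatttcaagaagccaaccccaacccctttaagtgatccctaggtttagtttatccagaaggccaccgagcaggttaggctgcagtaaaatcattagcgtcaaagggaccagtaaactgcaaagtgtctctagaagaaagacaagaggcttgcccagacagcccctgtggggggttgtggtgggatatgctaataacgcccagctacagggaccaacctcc
Myog (chr1:134289754-134290003, plus strand): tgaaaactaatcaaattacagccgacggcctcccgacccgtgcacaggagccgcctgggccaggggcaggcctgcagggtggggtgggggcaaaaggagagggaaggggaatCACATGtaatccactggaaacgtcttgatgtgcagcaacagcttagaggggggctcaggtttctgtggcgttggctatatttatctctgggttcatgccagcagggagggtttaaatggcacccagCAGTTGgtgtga
Myh3 (chr11:67078050-67078299, plus strand): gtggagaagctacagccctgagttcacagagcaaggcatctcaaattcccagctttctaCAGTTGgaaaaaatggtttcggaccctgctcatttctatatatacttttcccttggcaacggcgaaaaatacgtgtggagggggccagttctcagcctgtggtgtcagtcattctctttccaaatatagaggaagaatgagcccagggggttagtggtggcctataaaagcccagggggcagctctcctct
Mrln (chr10:70204414-70204663, plus strand): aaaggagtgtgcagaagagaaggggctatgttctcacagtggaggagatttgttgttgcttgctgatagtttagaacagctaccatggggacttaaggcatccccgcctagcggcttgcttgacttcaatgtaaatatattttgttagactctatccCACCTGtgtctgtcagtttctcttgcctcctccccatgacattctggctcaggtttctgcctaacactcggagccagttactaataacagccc

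The window of Myog holds 2 E-boxes, CACATG from −138 to −133 and CAGTTG from −12 to −7, counted in bases before the start. That of Myh3 holds 1, CAGTTG from −191 to −186, that of Mrln holds 1, CACCTG from −93 to −88, and that of Myf5 holds 0. Over all 32851 windows of this length, 66.2% hold at least 1 E-box. The narrower form CAGNTG, which the muscle factors favor and which is a subset of the E-box, is found once each in Myog, Myh3 and Mrln and in 44.8% of all windows. A core of the MEF2 site, written loosely as CTANNNNTA on either strand, occurs in 19.0% of all windows. Myog has 1 match, from −64 to −56, Myh3 has 1, from −156 to −148, Myf5 has 2 that overlap, from −182 to −173, and Mrln has 0. TATAAA, the common form of the TATA box, lies in the window of Myh3 from −29 to −24, in none of the other 3 windows and in 12.4% of all windows. These matches describe letters and show neither binding nor a cause.

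**Figure D3:**
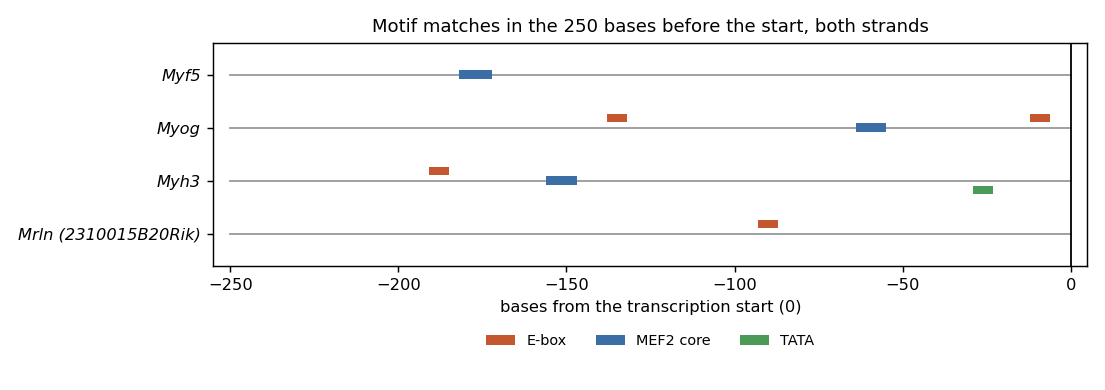
Positions of motif matches in the 250 bases before the transcription start of the promoter table (0) of Myf5, Myog, Myh3 and Mrln, in bases, on both strands. Orange marks E-boxes, blue the loose MEF2 core and green TATAAA. Myog holds 2 E-boxes, Myh3 and Mrln 1 each, and Myf5 none.

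Most other named genes on lists of skeletal muscle genes were also lower, the exceptions being Pax3, Six4 and Tpm2. Of 73 genes on 3 lists (myogenic regulators, skeletal sarcomere, and skeletal membrane and calcium handling), 21 have a named probe set, and 14 of these are not among the 7. All 14 come from the authors' table and so were chosen on this same contrast. Of the 14, 11 were lower and 3 higher in the NKO samples, with a median log2 difference of −0.38, against 0.24 over the 550 named genes, of which 40.7% were lower. The genotypes did not overlap in any of the 14, nor in 98.5% of the named genes, against 42.6% of all probe sets. With limma 0 of the 14 had an adjusted p under 0.05 and 13, all but Six4, an unadjusted p under 0.05, as did 86.7% of the named genes and 8.82% of all probe sets. With the trend and robust moderation 9 passed as lower and 2 as higher, where 20.7% and 32.4% of the named genes did. Since the named genes are those of a table of differing probe sets, these counts largely restate that selection.

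Of the 8 named myogenic regulators 6 were lower, including the 3 factors above. Msc, a repressor of the helix-loop-helix family (musculin), gave 209 and 198 (control) against 150 and 151 (NKO), at −0.40 (standard error 0.062). Tcf21 (capsulin), which acts with Msc in jaw muscle precursors, was at −0.26 (standard error 0.063). Cdh15, the M-cadherin of myoblasts, was at −0.39 (standard error 0.079).

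Pax3 and Six4 had higher values in the NKO samples. Pax3, a factor of trunk and limb muscle progenitors and of early neural crest, gave 116 and 110 (control) against 168 and 150 (NKO), at 0.44 (standard error 0.080). Six4, a homeobox factor upstream of the myogenic genes, gave 499 and 439 (control) against 543 and 556 (NKO), at 0.22 (standard error 0.084). Both NKO samples were above both controls for each gene, but Six4 passed neither the unadjusted threshold nor the fit with the trend, whereas Pax3 passed both. The other 13 regulators of the list, among them Myf6, Pax7, Tbx1 and Mef2c, have no named probe set.

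In the sarcomere list 10 of 11 named genes were lower, including the 3 described above. Kbtbd10 (now Klhl41), a Kelch protein that stabilizes nebulin, was at −0.48 (standard error 0.070), with 255 and 253 (control) against 186 and 170 (NKO). Its difference was close to that of Neb itself. The giant elastic protein gene Ttn, which heart muscle also expresses, was at −0.42 (standard error 0.060). Whether heart muscle expresses other genes of these lists was not looked at. The troponin genes Tnnt1, Tnni2 and Tnni1 were at −0.42, −0.37 and −0.22 (standard errors 0.058, 0.057 and 0.056). The light chain genes Myl1 and Mylpf were at −0.39 and −0.24 (standard errors 0.056 and 0.058). Tpm2, a tropomyosin that smooth muscle also expresses, was the higher one at 0.26 (standard error 0.059). Sln, the gene of sarcolipin, another peptide inhibitor of the calcium pump, was at −0.41 (standard error 0.085), with 101 and 108 (control) against 80.2 and 69.8 (NKO). Sln and Mrln were the named genes of 22 on the membrane and calcium list.

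**Figure D4:**
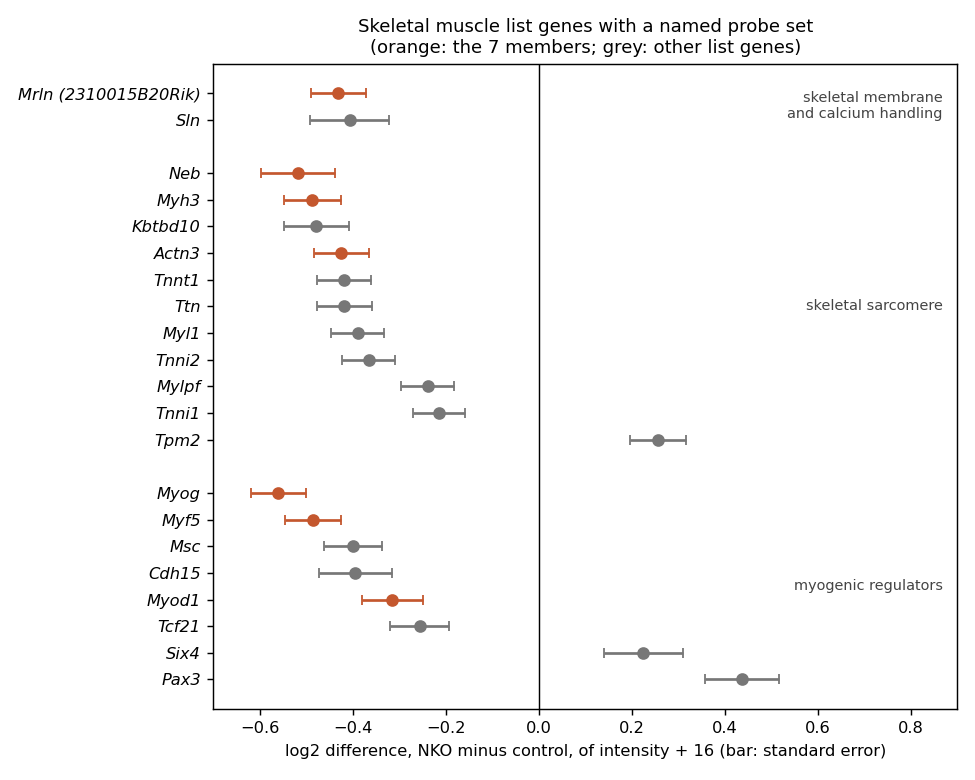
Log2 difference, NKO minus control, of intensity + 16 for the 21 named genes of the 3 skeletal muscle lists, with the standard error of the fit (2 samples per genotype). Orange points are the 7 genes described here and grey points the other 14. Pax3, Six4 and Tpm2 lie above 0 and the other 18 below it.

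Named genes of other cell types also come from the authors' table of differing probe sets, so that they differed was largely fixed in advance. Of the 550 named genes, 40.7% were lower, and in 98.5% the genotypes did not overlap. List genes without a named probe set were not looked at. All 7 named genes of 23 heart muscle genes were lower, with summed intensities of 7739 to 7832 in the controls and 6318 to 6454 in the NKO samples. Such sums weigh the brightest gene most, here Tnnt2 with 4252 to 4289 in the controls. The median log2 difference of these heart muscle genes was −0.30. Nppa, at −0.67 (standard error 0.063), differed more than any of the muscle genes described above. All 3 named genes of 10 endoderm genes (Afp, Alb and Pth) were lower, with sums of 396 to 423 and 125 to 148. The 9 named genes of 16 for blood, platelets and endothelium were all higher (2864 to 2921 and 4535 to 4728), as were the 12 named genes of 14 for neurons and glia (2831 to 2832 and 5107 to 5389) and the 4 of 20 for the neural crest and its mesenchyme, Pax3 among them (5194 to 5401 and 6277 to 6300). Of 12 smooth muscle genes 3 were named, with Tagln and Cald1 higher and Tpm1 lower (sums of 1762 to 1801 and 2287 to 2380). No named gene of these lists was at 0 in any sample, and defining genes such as Myh6, Myl7, Acta2 and Sox10 have no named probe set. How far the makeup of the sorted cells accounts for the muscle genes was not tested.

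The named genes with the profile most like that of Myog over the 4 arrays were Rptn, Scx, Nup62, Zfp874 and Lect1. Likeness is the Euclidean distance between profiles of log2(intensity + 16), each minus its own mean over the 4 arrays, and a smaller distance is a closer match. Distances from Myog were 0.051 for Rptn (repetin of the epidermis), 0.056 for Scx (a tendon progenitor factor), 0.079 for Nup62 (a nuclear pore protein), 0.091 for Zfp874 and 0.092 for Lect1 (chondromodulin). Among the muscle genes themselves, Myh3 lay at 0.090 from Myog, Myf5 at 0.11, Neb at 0.16, Mrln and Actn3 at 0.15 each and Myod1 at 0.27. Leaving out the 7 genes and counting named and unnamed probe sets alike, 15 lay at most as far from Myog as Lect1.

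Closest to the mean of the 7 genes were Xist, Nup62, Tnnt1, Myl1 and Islr, at distances of 0.048, 0.050, 0.073, 0.075 and 0.077. Tnnt1 and Myl1 are sarcomere genes of the lists above. Of the 7 genes, Myf5 was nearest to their mean (0.028) and Myod1 furthest from it (0.15). Xist, the RNA of the inactive X chromosome in female cells, gave 5806 and 5680 (control) against 4074 and 4117 (NKO), a log2 difference of −0.49 (standard error 0.057). The Y-linked genes Ddx3y, Kdm5d and Uty were higher in both NKO samples, at 0.42, 0.28 and 0.32 (standard errors 0.058, 0.056 and 0.076). Whether the sex of the pooled embryos bears on the muscle genes was not tested. With 4 samples, closeness rests mainly on the difference between genotypes and does not show shared function or control.

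**Figure D5:**
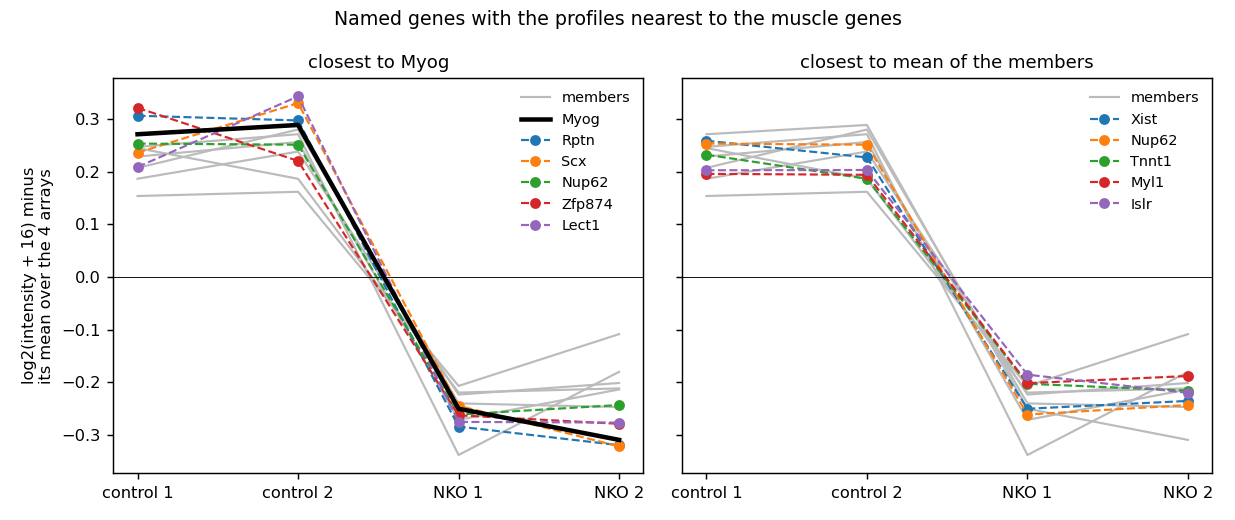
Profiles over the 4 arrays, as log2(intensity + 16) minus the mean of each gene over the arrays. Left, Myog (black), the other muscle genes (grey) and the 5 named genes nearest to Myog. Right, the 7 muscle genes (grey) and the 5 named genes nearest to their mean. Every line is high in both controls and low in both NKO samples.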

How the data were processed

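RNA of FACS-sorted cardiac NCCs (2 control and 2 NKO samples) was hybridized to Affymetrix mouse genome arrays. The deposited intensity values of 45101 probe sets had been normalized by the authors on a linear scale. Affymetrix Expression Console is named in the submitters' processing notes, and no source used here names its algorithm. The control means equaled the control intensity in the authors' own comparison table within 0.0447%. That table (VAMPIRE, 766 probe sets) was used to pair probe sets with genes, and so its selection also set which genes could be named. The fold and p columns of that table were not used. After synonyms were merged through RefSeq (GRCm38.p6), 613 of its rows name 1 gene, 38 several and 115 none.

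Affymetrix controls (64) were left out. An offset of 16 was added before log2, and 45037 probe sets were fitted with limma 3.58.1 in R 4.3.3 (lmFit and eBayes, no trend, Benjamini-Hochberg adjustment, threshold 0.05). The fit was checked on simulated data, with planted changes larger than those of the 7 members and only in probe sets brighter than the median. That check therefore does not cover changes as small as theirs or dim probe sets. A gene with several probe sets was represented by its brightest. Python 3.11.15 with numpy 2.4.6, pandas 2.3.3 and matplotlib 3.10.9 served for the rest. The members, gene lists and tests were chosen with earlier results of these data known. Named were the 7 members, Ilk, the list genes with a probe set that names them alone and the 5 genes nearest in profile, while the Y-linked genes were chosen after their values were seen. Of the regulator list 1 gene is not reported here and was left out of its counts. The alternatives were offsets of 1 and 64, median centring, quantile normalization, the replicate number as a block, brighter probe sets only, limma with an intensity trend, the methods' t-test, and leaving out each sample. The number of arrays limits the precision, and with 2 samples against 2 an exact permutation test cannot give a two-sided p below 0.333.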

Additional observations from a re-analysis of the deposited data

How the results depend on the processing

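The log2 differences of the 7 muscle genes lay between −0.64 and −0.23 over 9 alternatives. Since both NKO samples were below both controls, only median centring and quantile normalization could have changed a sign or made the genotypes overlap, and neither did in any of the 7. Their median of −0.49 was −0.52 with an offset of 1, −0.38 with an offset of 64 and −0.51 with quantile normalization, and lay between −0.50 and −0.44 when a sample was left out. Each gene has 1 named probe set, so dependence on the choice of probe set could not be examined.

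Counts of lower probe sets over the array depended more on the settings. The 71 probe sets at least 1.5-fold lower became 1557 with an offset of 1, 13 with an offset of 64 and 13 among brighter probe sets, and 145 to 259 without 1 sample. At an adjusted p under 0.05 limma passed 0 as lower, but 17 with an offset of 64, 16 among brighter probe sets and 207 with the intensity trend. The methods' t-test passed 1715 as lower unadjusted and 0 after Benjamini-Hochberg adjustment. The 8289 probe sets without overlap were 4589 among brighter probe sets, where fewer were tested, and 12870 to 16300 without 1 sample, where fewer samples are compared. The 1641 at an unadjusted p became 797 to 2399 without 1 sample (797 without the second control and 872 without the first). With the replicate number as a block (replicate block) the median of the 7 genes was −0.49, and 0 and 1417 probe sets passed at the adjusted and unadjusted p. Samples of equal number are not known to share more than that number, and their deviations correlated at −0.033 over probe sets. The dim probe sets of Neb (−0.64 with an offset of 1 and −0.32 with 64) and Actn3 (−0.52 and −0.27) depended most on the offset, which weighs more on low intensities. Where 1 sample was left out, the lone sample was assumed to vary like the other genotype.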
